A study of Mus musculus with 2 samples.

Results

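The distal intervals found in both PHLPP1 lists of this study were examined here: stretches of DNA at least 250 bp wide, called in macrophages given IL-4 and again in untreated macrophages, that lay away from the ends of protein-coding genes. They were chosen by their readout. An interval of the IL-4 list on chromosomes 1 to 19 was taken when at least 1 bp of it overlapped an untreated interval of at least 250 bp, and when its summit lay more than 10 kb from every annotated end of a RefSeq protein-coding gene. This held for 1348 of the 46467 wide distal IL-4 intervals (2.90%), which overlapped 1342 different untreated intervals. Of all 63819 wide IL-4 intervals, 1989 (3.12%) had such a partner, and of the 17352 within 10 kb of a gene end, 641 (3.69%). Because the overlap chose the intervals, these shares, the interval strengths and the comparisons below are descriptions and carry no test.

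The study mapped PHLPP1 on chromatin by CUT&Tag in primary mouse macrophages grown from bone marrow with the growth factor M-CSF at 20 ng/ml. There was 1 library of cells given IL-4 at 20 ng/ml for 4 h and 1 library of untreated cells, both taken as wild type from the study's design. The treatment notes of both samples also mention Phlpp1-deficient macrophages, no label says which genotype either library has beyond the design, and the lists offer no check of it. With 1 library in each group, no difference between them has a replicate check, and the labels do not say how many mice gave the marrow. The lists hold DNA intervals and no expression, so the macrophage identity of the cells could not be checked against marker genes, and libraries with a control antibody, of input DNA or from PHLPP1-deficient cells were not analysed here.

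PHLPP1 is a phosphatase best known for removing an activating phosphate from the kinase AKT. In CUT&Tag an antibody tethers a transposase to chromatin, which cuts and tags the DNA nearby, and open chromatin and repeated DNA can also collect tags without the antibody's target. Regions far from gene ends include enhancers and internal or non-coding start sites, but also copies of satellite, ribosomal and other repeated DNA, where reads of many copies can pile up on a single assembled one. IL-4 drives alternative activation of macrophages through its receptor and the transcription factor STAT6.

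The sequences of start sites among the shared distal intervals are shown first, because these are the intervals that lie at an annotated feature of gene regulation. Of the 1348 intervals, 10 overlapped a RefSeq start window, the 250 bases before and 50 bases from an annotated start. The IL-4 interval alone was used for this count. In 5 of them the window belonged to an internal start of a protein-coding gene, more than 10 kb from that gene's outer ends, and in the other 5 to long non-coding RNA genes alone. The lines below give 5 of these windows, 5′ to 3′ along the gene, from the RefSeq start table of build GRCm38.p6. Capitals mark the bases covered by the intervals of both libraries. Kifap3, whose product links kinesin-2 motors to cargo, lies on the plus strand at chr1:163779333-163779632. Ptprs, a receptor tyrosine phosphatase, lies on the minus strand at chr17:56462172-56462471. Por, the reductase that passes electrons to cytochrome P450 enzymes, lies on the plus strand at chr5:135688895-135689194. Kcnq1ot1, the antisense RNA of the imprinted Kcnq1 domain, lies on the minus strand at chr7:143296498-143296797. Gm26901, a long non-coding RNA gene, lies on the minus strand at chr1:7398047-7398346, and it has no capitals because the IL-4 interval covered the whole window and the untreated interval lay downstream of it.
Kifap3: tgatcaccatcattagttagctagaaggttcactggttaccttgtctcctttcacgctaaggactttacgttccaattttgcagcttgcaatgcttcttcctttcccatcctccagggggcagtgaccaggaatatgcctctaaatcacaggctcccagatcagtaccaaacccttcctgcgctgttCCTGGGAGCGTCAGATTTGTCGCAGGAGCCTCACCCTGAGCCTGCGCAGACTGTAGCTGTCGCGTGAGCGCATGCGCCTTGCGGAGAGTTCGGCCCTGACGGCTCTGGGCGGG
Ptprs: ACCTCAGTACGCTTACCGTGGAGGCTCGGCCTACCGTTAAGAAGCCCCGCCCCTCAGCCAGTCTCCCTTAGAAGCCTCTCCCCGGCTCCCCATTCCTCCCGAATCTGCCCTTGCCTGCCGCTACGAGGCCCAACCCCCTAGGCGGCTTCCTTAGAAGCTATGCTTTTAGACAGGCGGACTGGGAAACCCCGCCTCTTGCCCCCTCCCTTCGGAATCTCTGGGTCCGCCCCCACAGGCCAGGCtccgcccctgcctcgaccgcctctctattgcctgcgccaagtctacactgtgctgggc
Por: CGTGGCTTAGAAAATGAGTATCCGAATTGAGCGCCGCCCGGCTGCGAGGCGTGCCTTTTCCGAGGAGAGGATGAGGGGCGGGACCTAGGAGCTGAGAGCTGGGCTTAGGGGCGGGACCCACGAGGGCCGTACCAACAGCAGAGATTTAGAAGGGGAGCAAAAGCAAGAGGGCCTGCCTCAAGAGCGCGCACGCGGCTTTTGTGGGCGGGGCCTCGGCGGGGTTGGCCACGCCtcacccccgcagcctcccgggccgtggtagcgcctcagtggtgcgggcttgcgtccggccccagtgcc
Kcnq1ot1: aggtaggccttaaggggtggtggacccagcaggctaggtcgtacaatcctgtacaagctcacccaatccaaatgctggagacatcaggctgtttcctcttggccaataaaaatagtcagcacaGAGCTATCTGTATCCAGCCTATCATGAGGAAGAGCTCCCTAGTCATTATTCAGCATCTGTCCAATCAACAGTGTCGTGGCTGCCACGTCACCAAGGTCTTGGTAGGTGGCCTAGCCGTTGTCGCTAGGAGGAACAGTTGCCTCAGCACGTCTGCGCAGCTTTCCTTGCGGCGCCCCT
Gm26901: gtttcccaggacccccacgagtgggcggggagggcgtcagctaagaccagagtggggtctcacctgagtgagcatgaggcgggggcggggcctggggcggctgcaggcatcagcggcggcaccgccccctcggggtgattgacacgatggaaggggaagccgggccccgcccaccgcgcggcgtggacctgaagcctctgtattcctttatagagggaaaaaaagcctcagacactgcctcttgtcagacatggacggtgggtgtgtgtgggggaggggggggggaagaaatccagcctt

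At the internal start of Kifap3 both libraries had 9 fragments at their summit (exact Poisson 95% interval 4.12 to 17.1), with −log10 q values of 4.35 with IL-4 and 2.70 untreated. Here and below, the q value is the authors' for that interval, and the fragment number was solved from the deposited fold and p value. The IL-4 summit lay 22 bp and the untreated summit 52 bp downstream of the start, which itself lay 17445 bp inside the gene. This was the one start at which both q values were at least 2 on the −log10 scale. At Por the fragments were 6 in both libraries (2.2 to 13.1), with summits 113 bp (IL-4) and 207 bp (untreated) upstream of the start; the same interval covered the start of the non-coding gene Gm40345, which runs the other way. At Ptprs there were 8 fragments with IL-4 (3.45 to 15.8) and 4 untreated (1.09 to 10.2), and at the start of Kcnq1ot1, inside Kcnq1, 4 with IL-4 (1.09 to 10.2) and 7 untreated (2.81 to 14.4). The counting intervals of the libraries overlapped at each of these starts.

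Gm26901 had the strongest IL-4 signal of the start sites. Its IL-4 interval, chr1:7397410-7398360, held 19 fragments (11.4 to 29.7) at −log10 q 11.7, and its untreated interval held 6 (2.2 to 13.1) at −log10 q 1.11. The counting intervals overlapped between 11.4 and 13.1, but overlap of separate intervals does not itself compare the libraries. The log2 ratio of IL-4 over untreated, scaled to each list's lowest local background, was 2.2, with a counting interval of 0.82 to 3.82. The summits stood 301 bp (IL-4) and 294 bp (untreated) downstream of the start, 7 bp apart. The other starts were Hsd11b1, which encodes the enzyme that regenerates active glucocorticoid, with 6 fragments with IL-4 and 7 untreated, and Robo2, an axon guidance receptor, with 5 and 9 in the same order. The non-coding genes Gm40855 (4 with IL-4 and 6 untreated), Gm34186 (5 and 7) and Gm2087 (3 and 6) completed the set. At Robo2 both summits lay well upstream of the start, at 721 bp (IL-4) and 608 bp (untreated), and only the IL-4 interval's edge reached the window. At Hsd11b1 too the untreated interval missed the window and lay 190 to 448 bp downstream of the start.

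**Figure D1:**
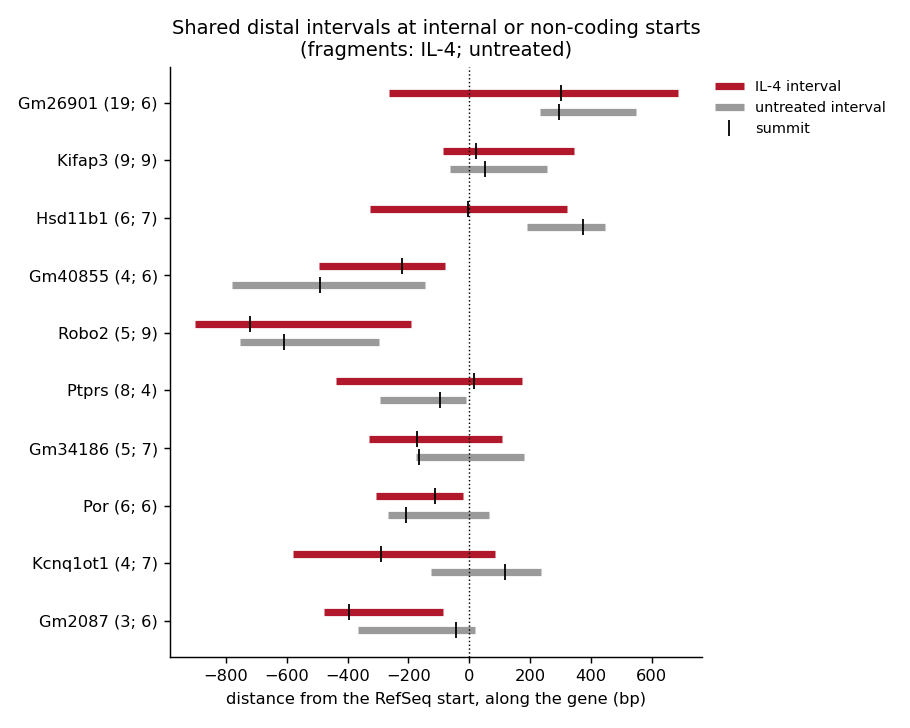
Intervals of both libraries at the 10 shared distal sites whose IL-4 interval overlapped a RefSeq start window. The horizontal axis is the distance from the annotated start in bp along the gene, bars are the IL-4 (red, upper) and untreated (grey, lower) intervals, black ticks are summits, and numbers beside each gene are fragments with IL-4 and untreated. The Kifap3, Por and Gm34186 bars overlap near the start, and the Gm26901 summits stand together downstream of it.

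The plot of intervals around starts shows how unevenly the pairs were placed: at Hsd11b1 the summits were 377 bp apart and at Kcnq1ot1 408 bp apart, against 4 bp at Gm34186. The windows at these intervals had a median GC content of 55.0% and a median ratio of observed to expected CpG of 0.573, against 52.7% and 0.384 over 32851 start windows. Among 9 motifs searched on both strands of the windows, the CTCF motif was found at Gm26901 and TGANTCA (AP-1) at Gm40855. The palindromic STAT6 motif, TTC and GAA with 4 bases between, was found at Ptprs. The AP-1 match, at −8 bp from the start, lay outside the intervals of both libraries. The CTCF match, at −236 bp, lay inside the IL-4 interval but outside the untreated one. Only the STAT6 match, at −104 bp, lay inside both. Of all start windows, 2.43% held the CTCF motif, 7.81% the AP-1 motif and 6.95% the STAT6 motif. C/EBP, ETS, IRF, E-box (CACGTG), CA repeat and telomere repeat motifs were in none of these windows.

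The start table used here leaves out chromosome 18, so the share at a start was 10 of 1292 (0.774%, Wilson 95% interval 0.421 to 1.42). It was 0.679% (0.606 to 0.761) among wide distal IL-4 intervals without a wide untreated partner, 0.391% (0.324 to 0.470) among wide distal untreated intervals without a wide IL-4 partner, and 39.4% (35.6 to 43.3) among shared intervals within 10 kb of a gene end. The counting interval of the first share contained the second. The distal intervals without a wide partner are called unshared below, and they may overlap a narrower interval of the other list.

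Most shared distal intervals were weak in both libraries. The median was 5 fragments in the IL-4 library, with a range of 3 to 157, and 6 in the untreated library, with a range of 4 to 145. In 1167 of the 1348 (86.6%) the IL-4 summit held at most 6 fragments, and in 1251 (92.8%) the untreated summit held at most 8. The lowest number in each list was 3 with IL-4 and 4 untreated, so most sat close to the authors' calling threshold. The median −log10 q was 1.26 with IL-4 and 1.11 untreated. Both lists gave a −log10 q of at least 2 in 48 intervals (3.56%, against 5.78% of all overlapping wide pairs) and of at least 5 in 13 (0.964%, against 1.16% of all such pairs). All such pairs include the 1348, and among the 641 within 10 kb of a gene end the shares were 10.5% and 1.56%. PCR copies the tagged DNA, so fragments need not be separate molecules, and all intervals here cover counting error only.

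**Figure D2:**
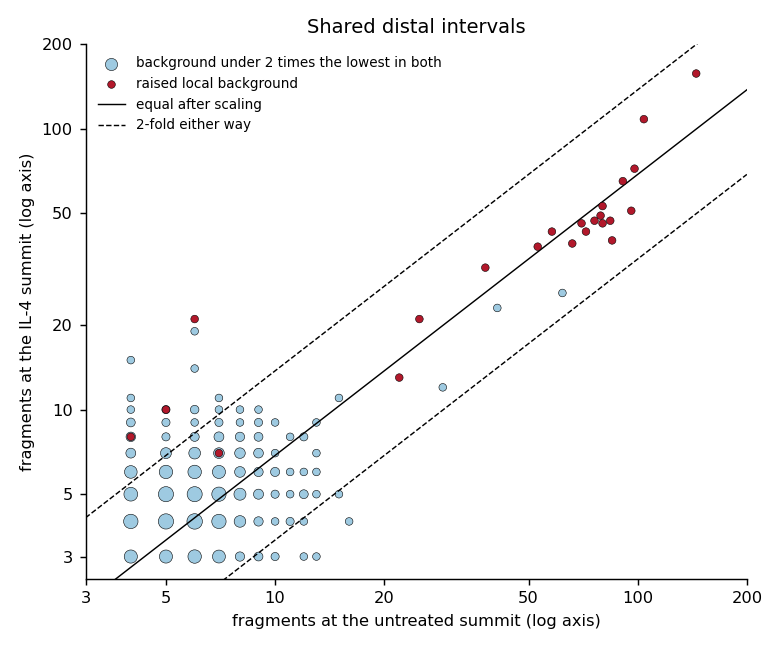
Fragments at the summit in the IL-4 library (vertical, log axis) and the untreated library (horizontal, log axis) for the 1348 shared distal intervals. Larger points stand for more intervals at the same pair of numbers, red points have raised local background, the solid line marks equality after dividing by each list's lowest local background and the dashed lines mark 2-fold either way. Nearly all points lie at the low corner, and all but 2 of the points with 20 or more fragments in both libraries are red, spread along the solid line.

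Fragment numbers were low on both sides of the thresholds that chose the intervals. The nearest interval inside the distance limit lay in Cpm, 10041 bp from its end, with 3 fragments with IL-4 and 5 untreated, and the next in Slc4a4, at 10063 bp, had the same numbers. The nearest excluded ones lay in Reln at 9985 bp (4 with IL-4 and 10 untreated) and Pde10a at 9978 bp (4 and 5). Of the IL-4 intervals, 41 had a width of 250 to 254 bp and a median of 4 fragments (3 to 9), and the 50 of 245 to 249 bp that met the other conditions also had a median of 4 (3 to 13).

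The shared sites with the most fragments fell into few places, and the first of them was Sfi1 on chromosome 11, a gene for a centrosomal protein. It held 12 of the 1348 intervals, between 3142183 and 3188248 (46.1 kb), more than any other gene. Their summits had 39 to 72 fragments with IL-4 (median 46.5) and 58 to 98 untreated (median 80), so every one stood far above the median interval in both libraries. The local background, the number of fragments the authors' caller took as usual for the neighbourhood, was 13.5 to 49.6 times the list's lowest with IL-4 and 14.1 to 50.6 times untreated. Against that background the deposited fold enrichment was only 1.52 to 4.56 with IL-4 and 1.62 to 4.16 untreated. The −log10 q ran from 0.66 to 11.4 with IL-4 and from 1.16 to 13.6 untreated, so not all 12 were strong by q value. The background was examined at these 12 intervals only, and signal between them was not measured here. After scaling to each list's lowest background, the log2 ratio of IL-4 over untreated fragments was −0.55 to 0.11. The transcribed pseudogene Pisd-ps1 lies beside Sfi1, and a further shared interval lay inside its relative Pisd-ps2, chr17:3081972-3082430. That one had 21 fragments with IL-4 (13.0 to 32.1) and 25 untreated (16.2 to 36.9), at a deposited fold of 9.26 with IL-4 and 10.5 untreated.

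**Figure D3:**
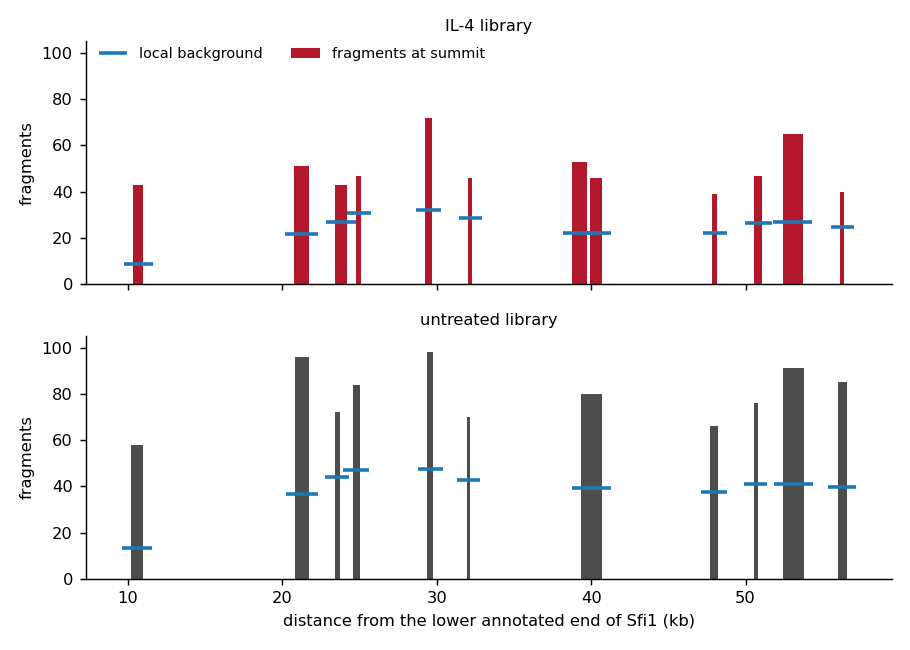
Fragments at the summit (bars) and local background (blue lines) of the 12 shared intervals inside Sfi1, with the IL-4 library above and the untreated library below. The horizontal axis is the distance in kb from the lower annotated end of Sfi1 and each bar is as wide as its interval; 2 IL-4 intervals share 1 untreated interval, so the lower panel has 11 bars. Bars reach 39 to 72 fragments with IL-4 and 58 to 98 untreated, and the background at each interval is at least 13.5 times the list's lowest.

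The highest fragment numbers stood beside Rn18s-rs5, a pseudogene of 18S ribosomal RNA on chromosome 17 (39846354 to 39848202). An interval that began upstream of it, chr17:39843376-39846385, had 157 fragments with IL-4 (133 to 184) and 145 untreated (122 to 171). A second, chr17:39848199-39848748, also inside the non-coding gene AY036118, had 108 with IL-4 (88.6 to 130) and 104 untreated (85.0 to 126). Their local background was the highest of all, 69.1 and 66.5 times the lowest with IL-4 and 54.7 and 53.7 times untreated, and the deposited fold was 3.48 and 2.49 with IL-4 and 2.80 and 2.05 untreated. Scaled log2 ratios were 0.66 (0.32 to 0.99) and 0.60 (0.19 to 1.00), the interval covering counting error alone. Before scaling the libraries' counting intervals overlapped at both.

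Other strong sites stood higher over their local background, at a deposited fold of 5.40 to 18.1. An interval inside the non-coding gene Gm36876, chr11:109011646-109012122, 61166 bp from the end of Axin2, had 49 fragments with IL-4 (36.3 to 64.8) and 79 untreated (62.5 to 98.5). Its deposited fold was 15.4 with IL-4 and 18.1 untreated, its background 3.50 and 3.66 times the lowest in the same order, and its summits 12 bp apart. Near Ly6c2, a gene of a monocyte surface antigen, chr15:75086693-75086972 had 38 with IL-4 (26.9 to 52.2) and 53 untreated (39.7 to 69.3). A weaker neighbour there, chr15:75085495-75085822, had 13 (6.92 to 22.2) and 22 (13.8 to 33.3) in that order. An interval 1031 kb from the nearest gene end, that of Lrrc4c, at chr2:98662533-98662867, had 32 with IL-4 (21.9 to 45.2) and 38 untreated (26.9 to 52.2), with summits 12 bp apart. In each of these the untreated number was the higher before scaling, and the scaled log2 ratios were −0.15, 0.06, −0.22 and 0.29 in the order given.

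Raised local background, at least 2 times the list's lowest in either library, marked 23 of the 1348 intervals (1.71%, Wilson 95% interval 1.14 to 2.55). It marked 0.106% (0.0803 to 0.141) of the unshared distal IL-4 intervals and 0.0850% (0.0576 to 0.125) of the unshared untreated ones, but 12.9% (10.6 to 15.8) of shared intervals near gene ends. Of the 23, 12 lay inside Sfi1, 2 beside Rn18s-rs5 and 2 near Ly6c2. Such neighbours are not separate draws, and the Wilson intervals do not allow for this. In 18 of the 23 the background was raised in both libraries. In the other 5 it was raised with IL-4 only, at Ptprs, Myo3a and Pisd-ps2 and at sites nearest to Cebpb and A430005L14Rik. Crowding was as frequent as elsewhere: 309 shared distal intervals (22.9%) had at least 2 other wide intervals within 10 kb, against 22.8% of the unshared distal IL-4 intervals and 25.6% of the unshared untreated ones. By raised background or crowding together 317 intervals counted as hotspot-like, and with small RNA genes taken out as well 1016 were left as isolated. This split depended on the limits: with neighbours counted within 50 kb 1244 were hotspot-like, and with a background limit of 1.5 times the lowest 79 had raised background. The sequence of the intervals themselves was not used here, so whether they hold annotated repeats was not tested, and "isolated" describes their surroundings and not a regulatory function.

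Of the 13 intervals with −log10 q of at least 5 in both lists, 9 had raised background and 4 did not. These 4 are the strongest sites without raised local background. How far an interval's own fragments raised its local background was not tested. In Kctd16, which encodes a subunit associated with GABA-B receptors, chr18:40308078-40308392 had 26 fragments with IL-4 (17.0 to 38.1) and 62 untreated (47.5 to 79.5). Inside the non-coding gene Gm40034, chr2:181917472-181917958 had 23 with IL-4 (14.6 to 34.5) and 41 untreated (29.4 to 55.6). On the side of Rpp21, chr17:36231253-36231574 had 12 with IL-4 (6.20 to 21.0) and 29 untreated (19.4 to 41.6), and on the side of Pex2, 282091 bp away, chr3:5860392-5860771 had 11 (5.49 to 19.7) and 15 (8.40 to 24.7). All 4 had more fragments untreated. Scaled, the log2 ratio was −0.71 (−1.43 to −0.03) at Kctd16, −0.29 at Gm40034, −0.73 (−1.84 to 0.28) at the Rpp21 side and 0.09 at the Pex2 side. Their summits lay 17, 8, 30 and 5 bp apart in that order.

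Agreement of position went with strength. Where the lower of the 2 −log10 q values was under 1, the summits of a pair were a median of 157 bp apart (922 intervals), and from 1 to 2 the median was 158 bp (378 intervals). It was 76 bp from 2 to 5 (35 intervals) and 30 bp at 5 or more (13 intervals). Without raised background the last value was 12.5 bp, over 4 intervals. Shared intervals near gene ends had medians of 155.5, 145, 80 and 23.5 bp over the same steps, so this was not particular to distal sites. Over all 1348, 270 pairs (20.0%) had summits within 50 bp.

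**Figure D4:**
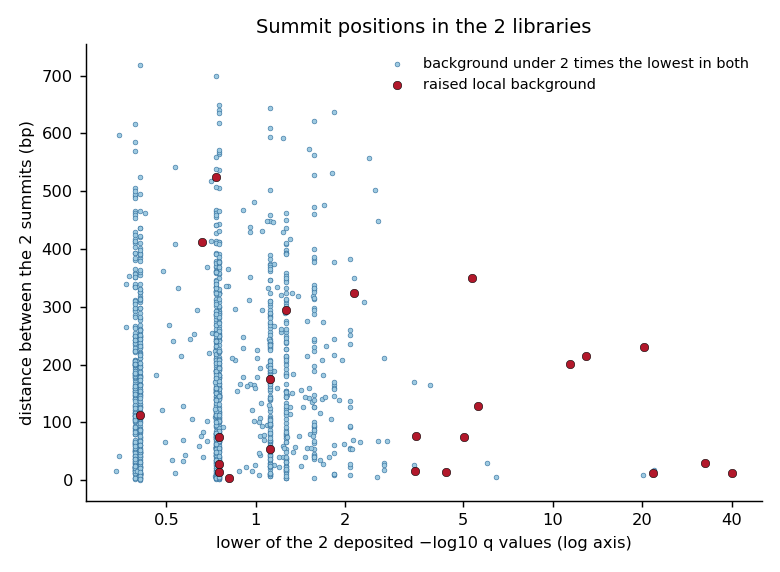
Distance in bp between the IL-4 and untreated summits (vertical) against the lower of the 2 deposited −log10 q values (horizontal, log axis) for each shared distal interval. Red points have raised local background. Gaps spread up to 719 bp at low values, and the 4 blue points at 5 or more lie between 5 and 30 bp, while some red points there lie up to 350 bp.

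Which library was higher depended on the scaling. Divided by the lowest local background of each list, 0.643 with IL-4 and 0.936 untreated, the median log2 ratio of IL-4 over untreated fragments was 0.22 over the shared distal intervals and 0.28 over all overlapping wide pairs, whereas without that scaling it was −0.32 over the distal ones. Scaled, 95 intervals (7.05%, 5.80 to 8.54) were higher with IL-4 past 2-fold, against 15.5% of all overlapping wide pairs, and 11 (0.816%, 0.456 to 1.46) were lower past 2-fold, against 0.704%. Without scaling the higher share was 1.56%, against 6.13% of all pairs, and the lower share 11.7%, against 10.2%. All pairs include the 1348 themselves. Scaled, the median log2 ratio of the 641 pairs within 10 kb of a gene end was 0.54. Past 2-fold, 33.4% of those near gene ends were higher with IL-4 and 0.468% lower. Of the 95, 62 had at most 4 untreated fragments, the lowest number in the untreated list. Inside protein-coding genes lay 40 of the 95, close to the share over all 1348 (538, 39.9%). Raised background marked 3 of the 95, against 23 of all 1348. A start window was touched by 2, against 10 of the 1292 outside chromosome 18. An IL-4 −log10 q of at least 5 was found for 9, against 22 of all 1348.

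Acaca, which encodes acetyl-CoA carboxylase, the enzyme that commits acetyl-CoA to fatty acid synthesis, held the interval with the highest scaled ratio. At chr11:84179524-84180200 there were 15 fragments with IL-4 (8.40 to 24.7) and 4 untreated (1.09 to 10.2), a log2 ratio of 2.45 (0.80 to 4.50). Myo3a, an unconventional myosin gene, followed with 21 with IL-4 (13.0 to 32.1) and 6 untreated (2.2 to 13.1), a log2 ratio of 2.35 (0.99 to 3.95). The IL-4 background there was 2.37 times the lowest, and the untreated one was at the lowest. Gm26901, described above, had a log2 ratio of 2.2 (0.82 to 3.82). Slc24a2, a sodium and calcium exchanger gene, had 11 with IL-4 and 4 untreated (log2 ratio 2.0, 0.25 to 4.11), and Tbc1d16, which encodes a Rab GTPase-activating protein, 10 with IL-4 and 4 untreated (1.86, 0.07 to 3.99). At all 5 the untreated interval was weak, with −log10 q between 0.408 and 1.11. These are the extremes of 1348 ratios of small numbers.

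At the other end, an interval in Tenm3, a teneurin gene of cell adhesion, had 3 fragments with IL-4 (0.619 to 8.77) and 13 untreated (6.92 to 22.2), a scaled log2 ratio of −1.57 (−4.03 to 0.29). One in Cdk8, the kinase of the Mediator complex, had 4 with IL-4 (1.09 to 10.2) and 16 untreated (9.15 to 26.0), a ratio of −1.46 (−3.50 to 0.17), with summits 5 bp apart. An interval nearest to Pabpc6 had 3 with IL-4 and 12 untreated, but its paired intervals overlapped by only 1 bp, with summits 505 bp apart. Intervals in Ano1, a calcium-activated chloride channel gene, and nearest to Bpnt2 each had 3 and 10 in that order. The summits lay 83 bp apart at Tenm3, 112 bp at Ano1 and 358 bp at Bpnt2, so the numbers of a pair need not describe the same position. The counting interval of the scaled ratio included 0 at all 5.

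Small nucleolar RNA genes lay beside a few of the weak shared intervals. These genes encode guides for the modification of ribosomal and other RNAs, and many annotated copies in mouse are short predicted genes. A summit within 1 kb of the end of one was found for 16 intervals at 16 different genes of 126 to 145 bp, which is 1.19% (0.732 to 1.92), against 0.197% (0.160 to 0.243) of the unshared distal IL-4 intervals and 0.204% (0.159 to 0.263) of the unshared untreated ones. They had 3 to 7 fragments with IL-4 (median 5) and 4 to 10 untreated (median 6), and the lower −log10 q did not exceed 1.26. In 10 of the 16 the summit lay 800 to 1000 bp from the gene's end and in 2 the interval overlapped the gene. That narrow range of distances held 0.742% (0.403 to 1.36) of the shared distal intervals, 0.0310% of the unshared IL-4 ones and 0.0306% of the unshared untreated ones. Examples are Gm24780 on chromosome 3, with a summit 867 bp away, 5 fragments with IL-4 and 10 untreated, and Gm24288 on chromosome 8, at 802 bp, with 7 and 6 in that order. Farther out, at 1000 to 2000 bp, the shares were 0.223% (0.0757 to 0.652) of the shared distal intervals, 0.104% of the unshared IL-4 ones and 0.136% of the unshared untreated ones. This distance range was looked at after the small RNA genes had been counted, and sequence similarity between these loci was not tested. With the 2 intervals at Rn18s-rs5 and 1 beside an snRNA gene, 19 intervals (1.41%, 0.904 to 2.19) lay at a small or ribosomal RNA gene, against 0.304% (0.257 to 0.359) of the unshared IL-4 ones and 0.255% (0.204 to 0.320) of the unshared untreated ones.

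**Figure D5:**
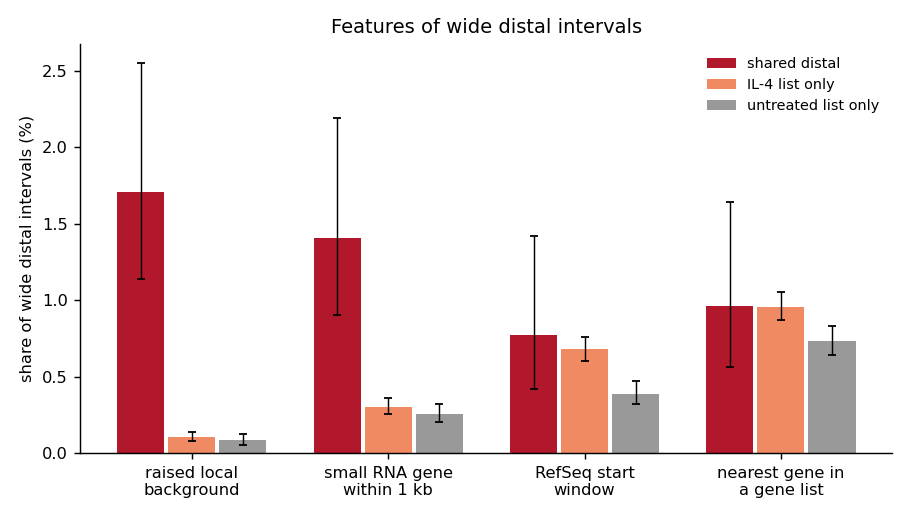
Share in percent of shared distal, IL-4-only distal and untreated-only distal intervals with each feature. Here "only" means without a partner of at least 250 bp in the other list, and a narrower partner may exist. Bars start at 0 and whiskers are Wilson 95% intervals for counting error. Raised background (1.71%, 23 intervals of which 12 lie inside Sfi1) and small or ribosomal RNA genes (1.41%) were more frequent among shared intervals. The bar labelled small RNA gene also counts the 2 intervals at Rn18s-rs5, which have raised background too. Start windows (0.774%) and genes of the 5 lists (0.964%) were about as frequent as among IL-4-only intervals. The whiskers count neighbouring intervals as separate.

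The place of the shared intervals within genes resembled that of other distal intervals. Summits lay inside a protein-coding gene in 39.9% (37.3 to 42.6), against 40.8% of the unshared IL-4 ones and 40.9% of the unshared untreated ones, and inside a long non-coding RNA gene in 10.8%, 10.5% and 10.8% in that order. They fell in 461 protein-coding genes, of which 12 held at least 3. Beside Sfi1, which is 71.5 kb long, these were Alk and Cdh13 with 4 each and 9 genes with 3 each, among them Csmd1 and Fhit, and all 11 were between 229 and 1643 kb long. Chromosomes held between 25 (chromosome 19) and 121 (chromosome 1), which were 2.56% and 3.04% of their wide distal IL-4 intervals. That share ranged only from 2.43% (chromosome 12) to 3.21% (chromosome 17).

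Genes of macrophage and IL-4 biology were nearest to 13 of the 1348 intervals (0.964%, 0.564 to 1.64), against 0.957% of the unshared distal IL-4 intervals and 0.731% of the unshared untreated ones, so these genes were no more frequent than background. Of 125 genes in 5 lists, 10 had such an interval: 2 of 24 macrophage identity genes, 4 of 30 alternative activation genes, 2 of 22 IL-4 receptor signalling genes, 2 of 24 PHLPP and AKT pathway genes and 0 of 25 inflammatory genes. In the IL-4 receptor group, Irs2, the docking protein of the IL-4 and insulin receptors, had an interval 65.8 kb away with 4 fragments with IL-4 and 8 untreated, and its relative Irs1 one at 180 kb with 3 and 7 in that order. In the PHLPP and AKT group, an interval inside Akt2 had 4 in both libraries and one inside Phlpp2, the paralogue of Phlpp1, had 4 with IL-4 and 5 untreated.

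Among alternative activation genes, Socs2, a suppressor of cytokine signalling, had an interval 11.3 kb away with 5 fragments in both libraries. Flt1, a VEGF receptor gene, held one with 5 in both, and Bcl6, a transcriptional repressor, had one at 110 kb with 4 with IL-4 and 6 untreated. Of the intervals nearest to Myc, a pair of IL-4 intervals at 164 kb overlapped the same untreated interval of 6 fragments, and they had 3 and 6 with IL-4. Among identity genes, Cebpb, a transcription factor of the myeloid lineage, had an interval 69.7 kb away with 10 fragments with IL-4 (4.8 to 18.4) and 5 untreated (1.62 to 11.7), and an IL-4 −log10 q of 2.98, the highest of this group. The IL-4 and untreated summits there lay 524 bp apart. Mitf, another transcription factor, had intervals at 74.4 kb (3 with IL-4 and 7 untreated) and 85.4 kb (4 in both). The counting intervals of the libraries overlapped at every one of these sites.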

How the data were processed

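CUT&Tag for PHLPP1 was made from 1 IL-4 and 1 untreated macrophage library, and the authors deposited 1 peak list per library. Build mm10 and the tools MACS2 2.2.7.1, Bowtie 0.12.8 and DiffBind come from the submitters' processing notes, which give no roles; for the control, duplicate handling and read totals, a statement is not given in the sources used here. In 100% of entries the deposited score was the whole part of 10 times −log10 p. The deposited fold enrichment is a ratio of fragments to the authors' local background, and −log10 values of p and q per peak were deposited as the authors' caller wrote them and used only to describe and filter. No −log10 p in either list was under 2.00.

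Fragments at the summit and local background were solved from fold = (fragments + 1)/(background + 1) and the Poisson upper tail, within 0.01 of −log10 p, which succeeded for 100% of entries and was checked on simulated data. Entries of the same interval kept the summit with the highest −log10 q. For 7 IL-4 intervals with several untreated partners, the partner with the highest −log10 q was used. For ratios, fragments were divided by the lowest background of each list, which is 1.46 times as high in the untreated list. Intervals are 95% (Wilson for shares, exact Poisson for fragments, and from the exact binomial split for ratios). Gene positions and start windows came from RefSeq, GRCm38.p6, the same build as mm10. Coordinates count from 1. Python 3.11.15, numpy 2.4.6, pandas 2.3.3, scipy 1.17.1 and matplotlib 3.10.9 were used.

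Regions were named by rule: the 10 with the highest lower −log10 q, the 5 highest and 5 lowest ratios, and the 5 highest backgrounds. Those at small or ribosomal RNA genes (10 strongest) and those nearest to list genes (12 nearest) were named too. Start-window sites, raised-background sites and snoRNA distances were singled out after their values were seen. The intervals, lists and comparisons were chosen with earlier results of these data known. Alternatives tried were width, distance, overlap, q value, gene set, scaling, summit choice and background limits.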

Additional observations from a re-analysis of the deposited data

How the results depend on the processing

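The number of shared distal intervals was set mainly by width and strength. It was 2665 at a minimum width of 200 bp, 268 at 350 bp, 48 with a −log10 q of at least 2 in both lists and 13 at 5 or more, against 1348. It stayed within 1.5 times for distances of 5 kb (1496) and 20 kb (1155), for an overlap of 50% of the shorter interval (916) and with the ends of all RefSeq genes (1019). The median log2 ratio was 0.18 at −log10 q of at least 2 and 0.094 at 5 or more. It turned to −0.32 without scaling and to −0.012 with the deposited fold enrichment, so no direction holds across scalings; the first turn follows from the division by backgrounds that differ 1.46 times. The share higher with IL-4 past 2-fold was 5.22% at 350 bp, 0% at −log10 q of at least 2 and of at least 5, 1.56% without scaling and 1.34% with the deposited fold. The share lower past 2-fold was 0% at both q limits and 11.7% without scaling. The q limits take out any pair that is weak in either list. Of the 95 intervals higher past 2-fold, 62 had at most 4 untreated fragments, so the 0% values follow in part from the limits themselves. Leaving out the intervals of raised background, an alternative chosen after seeing the data, gave 6.94% higher and 0.830% lower. Counting other wide intervals within 50 kb made 1244 hotspot-like, against 317, and a background limit of 1.5 times raised the raised-background count to 79, against 23. Sequence-based alternatives on repeats, GC content and motifs at the intervals were not run, because no genome was used here. No paired analysis was possible because each group had 1 library and the labels carry no replicate numbers, and for the same reason no library could be left out. With a median of 5 fragments with IL-4 and 6 untreated, the counting interval of the ratio is wide at most single sites: at 5 in both it ran from −1.58 to 2.66 on the scaled log2 scale.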
